A study of Mus musculus with 27 samples.

Results

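The extracellular matrix and hepatic stellate cell genes, 40 in all, were followed through the livers of 27 mice. The rule takes rows by gene symbol, and the symbols were chosen with earlier results of these data known. It holds 40 of the 17655 genes listed in the 4 deposited tables; all 40 were listed in every table. By role it comprises 5 fibrillar collagens, 4 basement membrane collagens, 4 collagens of types VI and XIV, 4 genes for small leucine-rich proteoglycans and dermatopontin, 2 elastic fibre genes, 4 matricellular genes, 3 lysyl oxidases, 3 metalloproteinases, 3 tissue inhibitors of metalloproteinases, 4 contractile or filament genes and 4 genes for receptors, TGF-β1 and reelin. All mice carried the floxed allele of *Kdm5b*, a histone H3K4 demethylase gene, and all received an AAV vector and WDA, which combines Western diet with drinking water that contained alcohol. WT mice received a control AAV whose promoter the labels do not give, KO mice received AAV8-CMV-Cre, which is delivered to the liver without cell type specificity, and HepKO mice received AAV8-TBG-Cre, which is directed to hepatocytes. Livers were taken on the diet (WDA, labelled 8 weeks, experiment 11: WT, KO and HepKO females, WT and KO males) or after 16 weeks of WDA and 4 weeks of resolution (Res, experiment 12: WT and KO females and males). Each of the 9 groups held 3 mice, each library came from 1 mouse, and the mice are named here by the numbers in their labels. The labels place the vector ahead of the diet for WDA mice, but between feeding and resolution for Res mice. Stage, experiment, the labelled weeks of feeding and the time of the vector coincide, so they cannot be told apart in any comparison of Res with WDA. The WDA labels give 8 weeks of feeding, which is less than the study's methods describe.

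In a healthy liver, stellate cells lie between hepatocytes and sinusoids, store vitamin A and make small amounts of basement membrane matrix. On injury they can become myofibroblasts, which contract through smooth muscle actin and secrete fibrillar collagens I and III, and portal fibroblasts around the bile ducts do the same. Secreted collagen is cross-linked by lysyl oxidases, cut by matrix metalloproteinases and protected by the inhibitors of these enzymes, the TIMPs. TGF-β1 and PDGF are the main signals for these cells, and the removal of scar after injury depends in part on macrophages.

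Sequence around gene starts is shown because genes of the set moved together from library to library. Of the 40 genes, 27 had an entry in the RefSeq promoter table (30 promoters, GRCm38.p6), and *Col1a1* had none there. Short stretches, in which the marked motifs do not overlap, are shown for 3 genes that hold a searched motif and for the divergent pair *Col4a1* and *Col4a2*, read 5′ to 3′ on the gene's strand with the motif in capitals. The *Col1a2* stretch is chr6:4505488-4505547 (+), from −130 to −71 relative to the annotated start, and holds a CCAAT box. The *Mmp13* stretch is chr9:7272454-7272513 (+), from −60 to −1, and holds an AP-1 element (TGACTCA) and a TATA box (TATAAA). The *Col6a1* stretch is chr10:76726095-76726154 (−), from −110 to −51, and holds an AP-1 element. The last is chr8:11312806-11312825 (+), the 20 bases between the starts of *Col4a1* (11312826, − strand) and *Col4a2* (11312805, + strand) in the promoter table. Each gene runs across the start of the other, so these bases lie inside both annotated genes, and reads there could be counted for either gene. Whether they act as a promoter was not tested. No motif is marked in them.
Col1a2: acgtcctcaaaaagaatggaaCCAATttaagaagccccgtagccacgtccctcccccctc
Mmp13: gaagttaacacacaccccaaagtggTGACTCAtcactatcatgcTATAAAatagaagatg
Col6a1: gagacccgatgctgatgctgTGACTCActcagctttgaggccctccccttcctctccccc
Col4a1-Col4a2: gtgcgcgggcggcgtctcca

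Searched on both strands in the 250 bases before the start, CCAAT was present in 9 of the 30 promoters of the set and in 33.8% of all 32851 promoters. TATAAA was present in 5 of 30 and in 12.4% of all, and TGACTCA in 2 of 30 and in 4.5% of all. These matches describe letters in a window and no more.

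Summed read counts ranged from 14634602 to 19388251 per library (median 17944536). Levels are given as CPM, read counts scaled to a common library size, with TMM scaling for comparisons between libraries, and as FPKM, which is scaled by transcript length, for comparisons between genes. *Kdm5b*, the targeted gene, was measured at 21.5, 25.1 and 31.0 CPM in WT WDA females, at 14.4 to 24.3 CPM in KO WDA females and at 8.3 to 17.6 CPM in HepKO WDA females. In WDA males it was 23.8 to 24.6 CPM in WT and 20.3 to 21.8 CPM in KO mice. In Res mice it was 16.6 to 17.8 CPM in WT and 10.6 to 13.04 CPM in KO females, and 18.8 to 19.6 CPM in WT and 7.9, 12.9 and 17.4 CPM in KO males, the last in mouse 5. The library labelled KO Res male 5 also held a transcript that was otherwise high in females, *A1bg*, at 4.94 CPM against at most 0.503 CPM in the other 11 males. Group means, edgeR counts and median fold changes of the set that rest on KO Res males are therefore given with and without this library. Other counts and sums, such as those of non-overlap and DESeq2, include it.

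By length-scaled level, the most abundant transcripts of the set were not those of scar collagen. The highest medians over 27 libraries were those of *Dcn* (decorin, a proteoglycan of stellate cells and fibroblasts) at 133.5 FPKM and *Col18a1* (a basement membrane collagen that hepatocytes also make) at 128.1 FPKM, followed by *Bgn* (biglycan) at 72.4, *Sparc* at 22.3 and *Mmp14* at 19.3 FPKM. *Col1a1*, the main chain of collagen I, had a median of 0.83 FPKM, and *Mmp13* (collagenase 3), *Lox* and *Thbs1* were lowest at 0.07, 0.13 and 0.29 FPKM. *Mmp13* was at or under 3 counts in 15 of 27 libraries and *Timp1* in 9, and their fold changes rest on few reads. RNA was taken from whole liver, so fewer cells of a type and less RNA per cell cannot be told apart.

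The widest differences in the set followed 5 libraries and no group as a whole. The summed CPM of the 40 genes was 3192 in KO WDA male 17, 2894 in WT WDA female 7, 2498 in WT Res female 13, 2111 in WT Res male 9 and 2035 in KO Res male 5, and lay between 1390 and 1884 in the other 22. Of the 40 genes, 37 had their highest library among these 5, and 26 had KO WDA male 17 and WT WDA female 7 as their 2 highest. The 5 were picked by the summed level of these same genes, so high values there are partly built in. The matching shares over all genes were not computed. The 3 genes highest elsewhere were *Col18a1* (KO WDA female 1), *Postn* (HepKO WDA female 14) and *Reln* (KO Res female 4). Each of these libraries belonged to a different group, and 4 groups held none: KO and HepKO WDA females, WT WDA males and KO Res females.

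**Figure D1:**
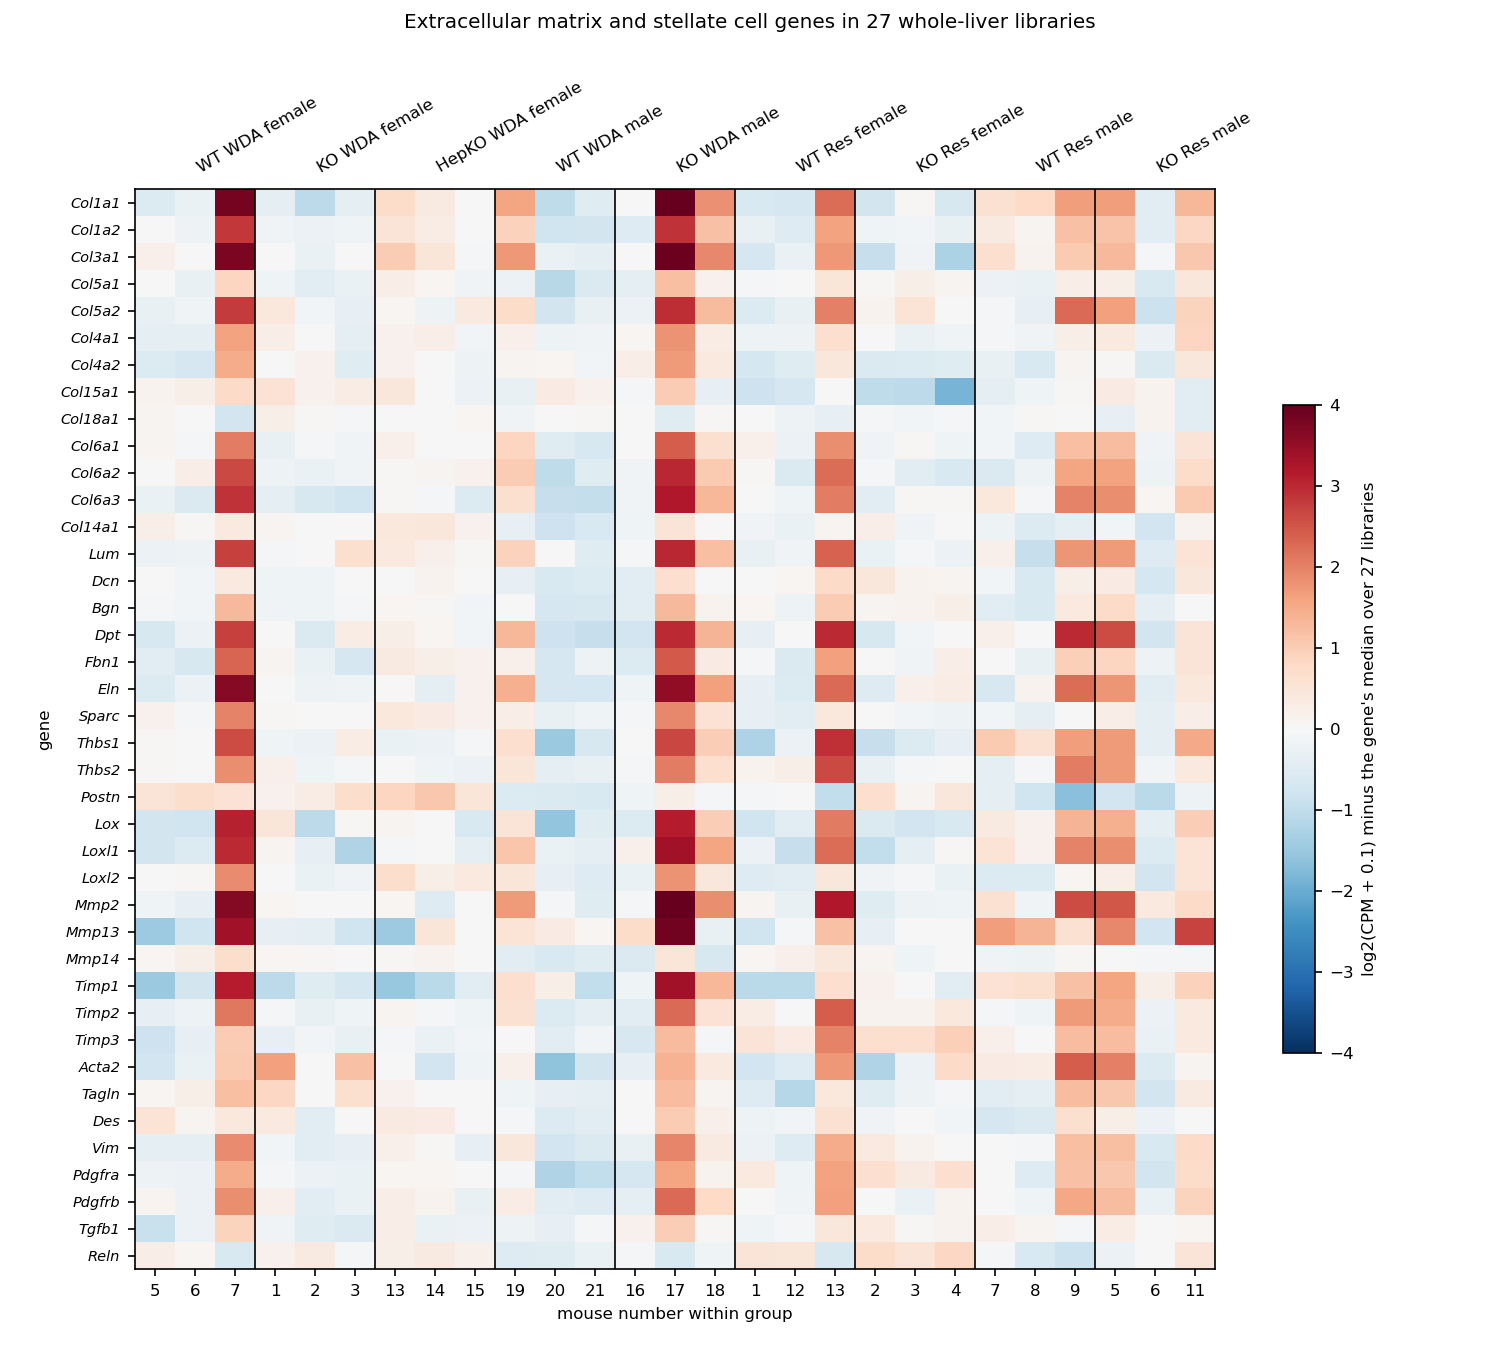
Heat map of the 40 genes (rows, ordered by role) in the 27 libraries (columns, by group and mouse number); colour is log2(CPM + 0.1) minus the gene's median over all libraries. The columns of KO WDA male 17 and WT WDA female 7 are high for most rows, *Col18a1* and *Reln* are low there, and the columns of KO and HepKO WDA females show no such library.

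Against their own groupmates, these libraries were high for most of the set. KO WDA male 17 was above both groupmates for 38 of 40 genes, with more than 2-fold for 33; over all genes, 46% were above both. WT WDA female 7 was above both for 36 genes (44% of all genes), WT Res female 13 for 37 (35.9%), WT Res male 9 for 34 (37.2%) and KO Res male 5 for 30 (34.2%). In that order, 30, 24, 19 and 8 genes were more than 2-fold above both. The share of all genes over 2-fold was not computed. *Reln* (reelin, a secreted glycoprotein that quiescent stellate cells make) was below both groupmates in all 5 libraries, and *Col18a1* in 3 of them. A sixth library, WT WDA male 19, had a sum of only 1646 CPM but was above both groupmates for 36 genes (31.2% of all genes) and more than 2-fold for 15. The sum of the set gives most weight to *Col18a1* (median 747.7 CPM), *Dcn* (220.3) and *Bgn* (165.8). Ranked by the summed CPM of the fibrillar collagens alone, KO WDA male 18 (108.6) lay above WT Res male 9 (93.01) and KO Res male 5 (92.25). WT WDA male 19 had 91.48 CPM by that sum, and KO WDA male 16 had 34.46.

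*Col1a1* (gene ID 12842, chr11:94936224-94953042) shows the pattern. In WDA females it was 3.28, 3.95 and 69.4 CPM in WT mice 5, 6 and 7, between 2.26 and 3.68 CPM in KO mice and between 4.79 and 7.96 CPM in HepKO mice. In WDA males it was 14.5, 2.32 and 3.37 CPM in WT mice 19, 20 and 21 and 4.77, 77.5 and 17.1 CPM in KO mice 16, 17 and 18. In Res females it was 3.10, 2.98 and 23.1 CPM in WT mice and 2.83, 4.94 and 3.07 CPM in KO mice. In Res males it was 7.33, 8.43 and 15.5 CPM in WT mice and 15.6, 3.43 and 12.2 CPM in KO mice. A single mouse thus set the mean of 4 groups, at 25.6 ± 38.0 CPM in WT WDA females, 33.1 ± 38.9 in KO WDA males, 9.71 ± 11.6 in WT Res females and 6.73 ± 6.74 in WT WDA males (mean ± SD, n = 3). KO Res males had 10.4 ± 6.28 CPM, and 7.83 ± 6.21 without mouse 5 (n = 2).

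The partner chain of collagen I followed it. On WDA, *Col1a2* was 35.8 ± 42.9 CPM in WT, 10.5 ± 0.325 in KO and 14.5 ± 2.38 in HepKO females, and 12.1 ± 9.11 in WT and 41.4 ± 42.5 in KO males (mean ± SD, n = 3). At the Res stage it was 18.1 ± 15.8 in WT and 10.5 ± 0.705 in KO females, and 18.2 ± 7.50 in WT and 18.6 ± 8.92 in KO males (14.9 ± 8.63 without mouse 5, n = 2). The ranges of WT WDA females and KO WDA males were set by the same 2 mice, at 85.3 CPM in WT female 7 and 89.3 CPM in KO male 17.

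*Col3a1* (collagen III, gene ID 12825, chr1:45311538-45349706) ran from 5.30 to 195 CPM in single libraries. On WDA, *Col3a1* was 67.4 ± 93.1 CPM in WT, 12.0 ± 1.25 in KO and 18.8 ± 7.07 in HepKO females, and 20.9 ± 18.6 in WT and 85.5 ± 96.8 in KO males (mean ± SD, n = 3). After resolution it was 20.4 ± 19.1 in WT and 7.85 ± 3.32 in KO females, and 20.2 ± 6.24 in WT and 23.5 ± 10.2 in KO males (19.4 ± 10.5 without mouse 5, n = 2). KO Res females had the lowest mean and also the lowest library.

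*Mmp2* (gelatinase A, made by activated stellate cells and fibroblasts) had its 5 highest values in these 5 libraries, up to 40.5 CPM in KO WDA male 17. On WDA, *Mmp2* was 11.8 ± 17.1 CPM in WT, 2.42 ± 0.0784 in KO and 2.18 ± 0.482 in HepKO females, and 3.98 ± 3.49 in WT and 17.3 ± 20.4 in KO males (mean ± SD, n = 3). In Res mice it was 9.07 ± 11.8 in WT and 1.95 ± 0.243 in KO females, and 7.002 ± 7.09 in WT and 7.01 ± 5.81 in KO males (3.66 ± 0.663 without mouse 5, n = 2). Where the SD exceeded the mean, 1 mouse was far above the other 2.

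*Acta2* (α-smooth muscle actin, the usual marker of myofibroblasts) had 4 of its 5 highest values in these 5 libraries, but ranked them in another order. On WDA, *Acta2* was 2.001 ± 1.45 CPM in WT, 3.74 ± 1.93 in KO and 1.39 ± 0.385 in HepKO females, and 1.16 ± 0.760 in WT and 2.74 ± 1.68 in KO males (mean ± SD, n = 3). At the Res stage it was 2.67 ± 2.80 in WT and 1.69 ± 1.15 in KO females, and 4.63 ± 4.31 in WT and 3.40 ± 3.33 in KO males (1.49 ± 0.489 without mouse 5, n = 2). Its highest single value, 9.60 CPM, was in WT Res male 9, and KO WDA male 17, where collagen I was highest, had 4.61 CPM. KO WDA females, a group with no high library, had 5.55, 1.71 and 3.96 CPM in mice 1, 2 and 3, above the 0.957 to 1.69 CPM of HepKO females.

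*Timp1* (an inhibitor of metalloproteinases that is induced in fibrosis) was 4.48 CPM in KO WDA male 17 and 3.79 CPM in WT WDA female 7, and at most 1.23 CPM in the other 25 libraries. On WDA, *Timp1* was 1.34 ± 2.12 CPM in WT, 0.171 ± 0.0519 in KO and 0.132 ± 0.0860 in HepKO females, and 0.384 ± 0.241 in WT and 1.93 ± 2.24 in KO males (mean ± SD, n = 3). After resolution it was 0.279 ± 0.290 in WT and 0.324 ± 0.0924 in KO females, and 0.686 ± 0.183 in WT and 0.801 ± 0.409 in KO males (0.584 ± 0.229 without mouse 5, n = 2). The means of KO and HepKO WDA females rest on libraries at or near 3 counts.

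*Mmp13* was 3.90 and 2.69 CPM in the same 2 WDA libraries and at most 1.66 CPM, in KO Res male 11, elsewhere. On WDA, *Mmp13* was 0.915 ± 1.54 CPM in WT, 0.0951 ± 0.0322 in KO and 0.150 ± 0.142 in HepKO females, and 0.244 ± 0.0566 in WT and 1.46 ± 2.12 in KO males (mean ± SD, n = 3). In Res mice it was 0.247 ± 0.242 in WT and 0.152 ± 0.0314 in KO females, and 0.556 ± 0.223 in WT and 0.883 ± 0.803 in KO males (0.862 ± 1.13 without mouse 5, n = 2). Collagenase 3 was thus near the limit of counting in most livers.

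*Tgfb1*, the ligand that drives collagen synthesis, varied less. On WDA, *Tgfb1* was 12.2 ± 7.83 CPM in WT, 8.56 ± 1.39 in KO and 10.9 ± 2.42 in HepKO females, and 9.88 ± 1.04 in WT and 15.6 ± 5.88 in KO males (mean ± SD, n = 3). At the Res stage it was 12.0 ± 2.96 in WT and 12.9 ± 1.56 in KO females, and 12.2 ± 1.34 in WT and 12.3 ± 1.29 in KO males (11.6 ± 0.467 without mouse 5, n = 2). Single values were 22.3 CPM in KO WDA male 17 and 21.02 CPM in WT WDA female 7, and in WT Res male 9 the value of 10.9 CPM was below both groupmates.

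**Figure D2:**
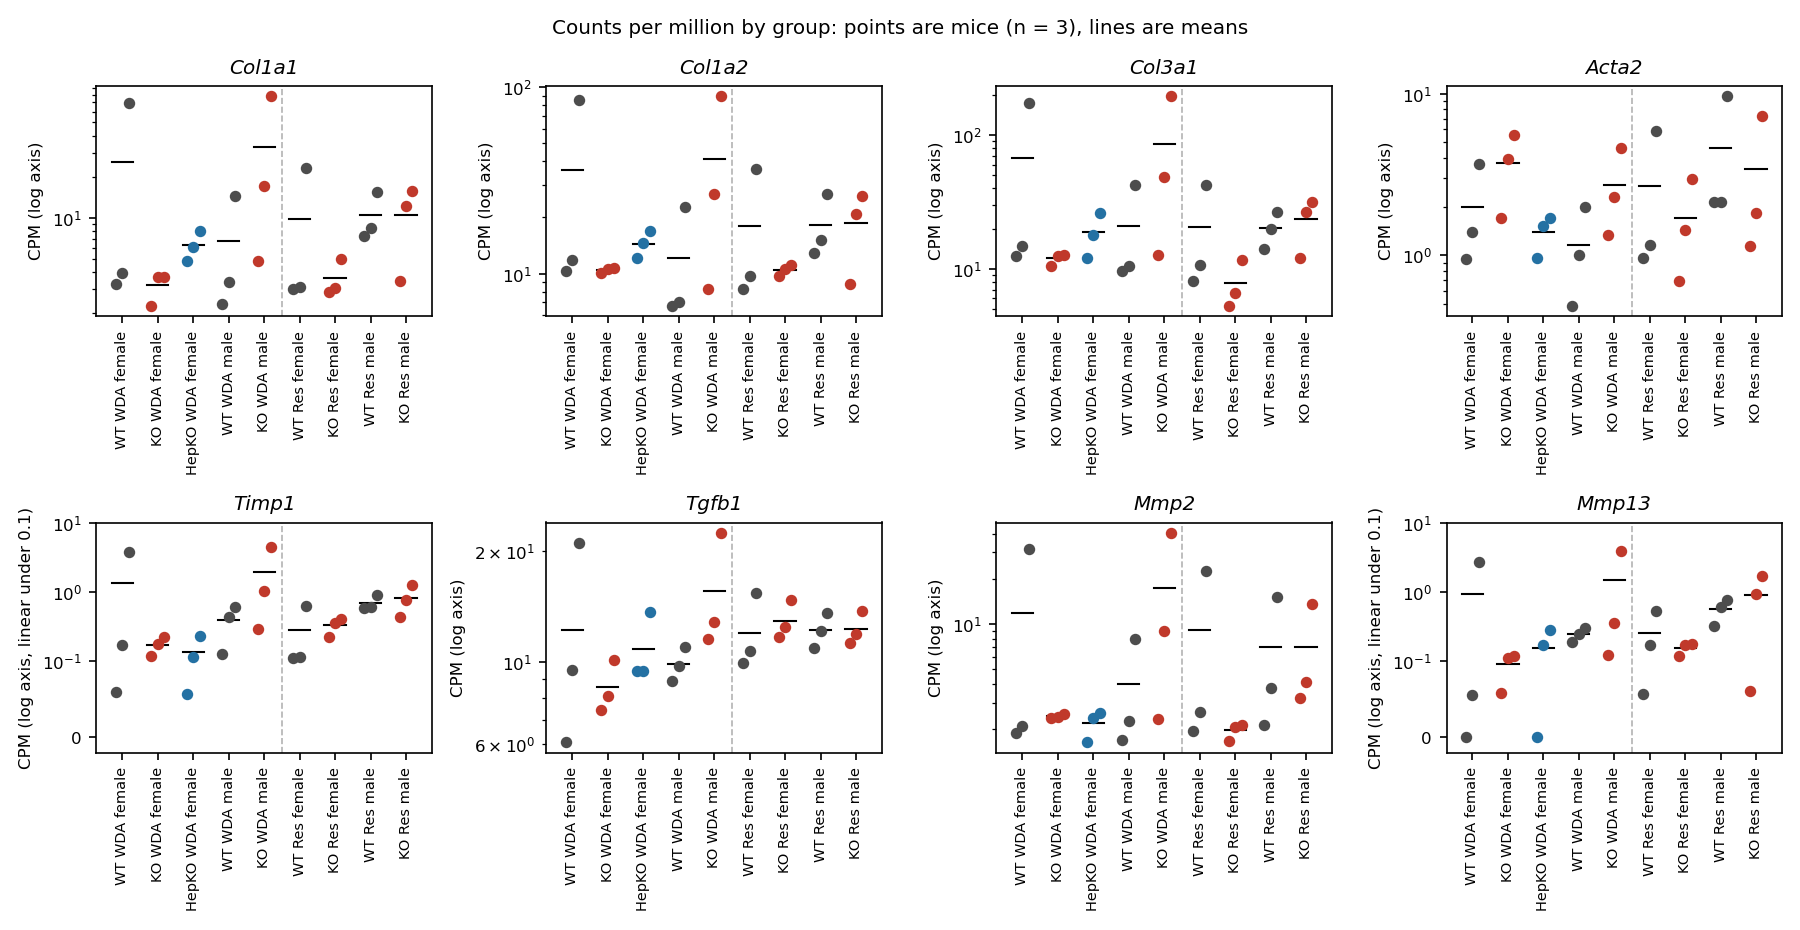
CPM on log axes of *Col1a1*, *Col1a2*, *Col3a1*, *Acta2*, *Timp1*, *Tgfb1*, *Mmp2* and *Mmp13* in each mouse (points) by group, with the group mean as a line. A single mouse lies far above the other 2 in WT WDA females and KO WDA males for every gene except *Acta2* and *Tgfb1*, where the gap is smaller.

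The high libraries of the 2 stages differed in the ratio of *Col3a1* to *Dpt*. *Dpt* (dermatopontin, a fibroblast protein that binds decorin and collagen) was nearly level among the 5, at 36.5 to 47.5 CPM, against a median of 5.79 CPM on WDA and 5.92 CPM after resolution over all libraries. *Col3a1*, in contrast, was 4.16-fold and 4.41-fold the *Dpt* level in KO WDA male 17 and WT WDA female 7, and 0.564 to 0.893-fold in the 3 Res libraries. Over all libraries this ratio was 1.74 to 4.41 on WDA (median 3.16, n = 15) and 0.564 to 3.43 after resolution (median 1.78, n = 12). *Timp3*, an inhibitor bound to matrix, was 137 CPM in WT Res female 13, and 82.7 and 82.4 CPM in WT Res male 9 and KO Res male 5, beside 83.2 and 70.1 CPM in the 2 WDA libraries.

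*Col4a1* and *Col4a2*, the divergent pair, varied less in their ratio than in level over the 27 libraries. *Col4a1* ran from 28.2 to 128 CPM. Its top values were in KO WDA male 17 and WT WDA female 7 (112.4 CPM), and it was at most 65.5 CPM elsewhere. Its ratio to *Col4a2* ran from 1.51 to 2.74. The ratio was 1.51 to 2.25 on WDA (median 1.97) and 1.98 to 2.74 after resolution (median 2.27).

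Markers of some other cell types were also high in these libraries, which were singled out by the sum of the set itself. The summed level of 12 cholangiocyte markers was 187.3 to 622 CPM in the 5 libraries and 26.3 to 133 CPM in the other 22. That of 9 scar-associated macrophage markers was 334 to 1367 against 75.9 to 276 CPM, and that of 10 portal fibroblast markers 131.6 to 270.3 against 29.3 to 101.7 CPM. *Spp1* (osteopontin), held by both the cholangiocyte and the macrophage list, made up 474 CPM in KO WDA male 17, and *Eln* of the set is also in the portal fibroblast list. Without genes that the set or another list also holds, the sums were 55.7 to 149.5 against 10.5 to 50.2 CPM (10 cholangiocyte markers), 194.5 to 848 against 48.9 to 172.4 CPM (7 macrophage markers) and 106 to 201 against 24.9 to 93.2 CPM (7 portal fibroblast markers). The lowest sum among the 5 libraries still exceeded the highest among the others for each of these 3 lists. *Gas6* alone reached 165.9 CPM in KO WDA male 17, so 1 gene carries much of the portal fibroblast sum. *Thy1* of that list was highest in WT Res male 8, outside the 5. The 9 smooth muscle markers summed to 32.0 to 50.2 against 12.7 to 29.0 CPM (13.4 to 24.4 against 6.02 to 12.3 CPM without *Acta2*, *Tagln* and *Des* of the set), and the 8 mesothelial markers to 8.97 to 16.5 against 1.11 to 15.03 CPM. All 9 macrophage markers, 10 of 12 cholangiocyte markers and 6 of 10 portal fibroblast markers had KO WDA male 17 and WT WDA female 7 as their 2 highest libraries, and 3 of 19 stellate markers did. No list was at 0 throughout.

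Stellate, Kupffer, endothelial and hepatocyte markers did not separate the 5 libraries. The 19 stellate markers, 4 of them in the set, summed to 507 to 721 CPM in them and 343 to 659 CPM in the others. Kupffer cell markers (7 genes) summed to 134.3 to 306 against 231 to 723 CPM, endothelial markers (9 genes) to 264 to 321 against 261 to 478 CPM, and hepatocyte markers (10 genes) to 89600 to 111500 against 89460 to 187400 CPM. *Lrat*, which makes the vitamin A esters stored by quiescent stellate cells, was highest in WT WDA female 5, a library with low collagen. The part of these cell types in the levels of the set was not tested.

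**Figure D3:**
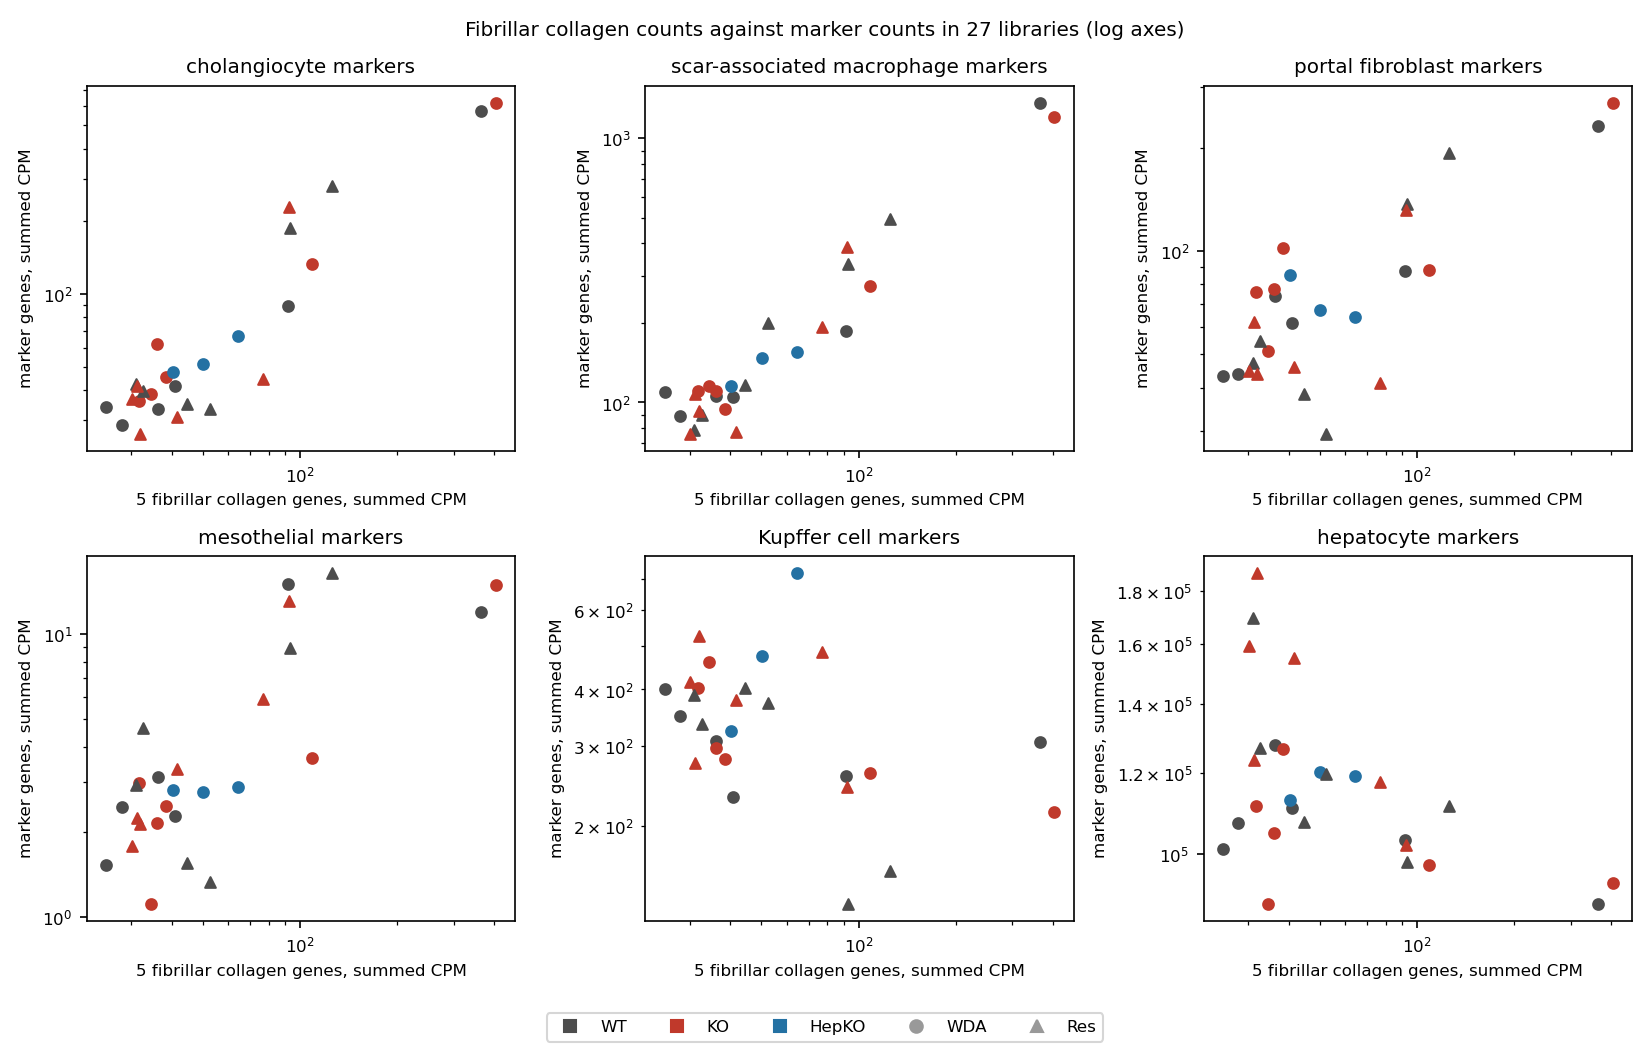
Summed CPM of the fibrillar collagens (x) against the summed CPM of 6 marker lists (y) in 27 libraries, both on log axes; points are libraries. KO WDA male 17 and WT WDA female 7 have the most collagen and the most cholangiocyte and scar-associated macrophage signal. The Kupffer cell and hepatocyte sums are not highest in them. KO WDA male 18 has more collagen than WT Res male 9 and KO Res male 5, but lower cholangiocyte and macrophage sums.

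Stage was compared within each vector and sex. Genes were tested with the quasi-likelihood test of edgeR, p-values were adjusted by Benjamini-Hochberg over all genes tested, and the share of all genes called stands beside each count. KO females gave the only calls within the set. *Timp3*, *Pdgfra*, *Tgfb1*, *Reln*, *Vim*, *Timp2* and *Bgn* were higher and *Col15a1* and *Tagln* lower after resolution than on WDA, so that 9 of 37 tested genes passed, beside 20.4% of all 12470 genes tested. In each direction the share of all genes was 10.2%. At unadjusted p under 0.05 there were 14 (35.8% of all genes), and 15 did not overlap between the groups (40.5%). The count was near the background of this comparison, which is itself large. The median log2 fold change of the set was 0.04, with 20 genes above 0 and 17 below. DESeq2 called 8 of them. Neither group held a library that stood apart.

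*Timp3* (gene ID 21859, chr10:86300412-86349505), which inhibits metalloproteinases and TNF-α shedding, was 54.0, 55.6 and 67.1 CPM in KO Res females and 27.5, 32.1 and 28.2 CPM in KO WDA females. All Res values exceeded all WDA values, with a log2 fold change of 1.03 (SE 0.124, edgeR adjusted p = 0.00142). *Timp2*, another inhibitor, rose by 0.43 (adjusted p = 0.0445), although it did not pass with DESeq2 (0.0527). *Timp1*, at 2 to 7 counts per library, was too low to be tested.

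*Col15a1* (collagen XV, found in basement membranes of vessels, gene ID 12819, chr4:47207655-47313167) went the other way, with 4.16, 4.08 and 2.29 CPM in KO Res females against 12.7, 9.54 and 10.4 CPM in KO WDA females. The log2 fold change was −1.61 (SE 0.235, edgeR adjusted p = 0.00293). It was the sole call that held in every alternative tried, and the only 1 of the 9 left when all groups shared a spread. *Tagln* (transgelin, an actin-binding protein of smooth muscle) was 2.83, 3.45 and 3.73 CPM against 7.07, 3.97 and 6.29 CPM (log2 fold change −0.77, SE 0.241, adjusted p = 0.0495) and passed by little. *Acta2*, which usually moves with it, had a log2 fold change of −1.11 and did not pass (adjusted p = 0.146).

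In the group of receptors, TGF-β1 and reelin, 3 of 4 genes rose. *Pdgfra* (PDGF receptor α, of stellate cells and fibroblasts) was 21.8, 17.7 and 21.7 CPM against 12.9, 11.7 and 11.5 CPM (log2 fold change 0.79, SE 0.134, edgeR adjusted p = 0.00481). *Tgfb1* was 14.7, 11.7 and 12.4 CPM against 10.1, 8.11 and 7.45 CPM (0.62, SE 0.165, adjusted p = 0.0283), and *Reln* 109, 92.8 and 117 CPM against 72.9, 83.2 and 63.1 CPM (0.56, SE 0.135, adjusted p = 0.0193). The groups did not overlap for any of these. The fourth, *Pdgfrb* (PDGF receptor β), was 8.72, 7.35 and 9.76 CPM against 10.2, 6.45 and 7.28 CPM, which overlap (0.13, SE 0.200, adjusted p = 0.674). *Vim* (vimentin, the filament of mesenchymal cells) and *Bgn* rose by 0.52 and 0.32 (adjusted p = 0.0326 and 0.0459). The fibrillar collagens did not pass: *Col1a1* had 0.20 (SE 0.281, adjusted p = 0.653).

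The calls rested on all 6 mice. Leaving out KO Res female 2 or 4 left 3 calls, leaving out KO WDA female 2 or 3 left 5, and the range was 3 to 6. *Timp3*, *Pdgfra* and *Col15a1* stayed called with each mouse left out, whereas *Tgfb1* lost its call without KO WDA female 2 or 3 or KO Res female 2 or 4, *Reln* without KO Res female 2 or 4, and *Tagln* without any mouse other than KO WDA female 2.

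**Figure D4:**
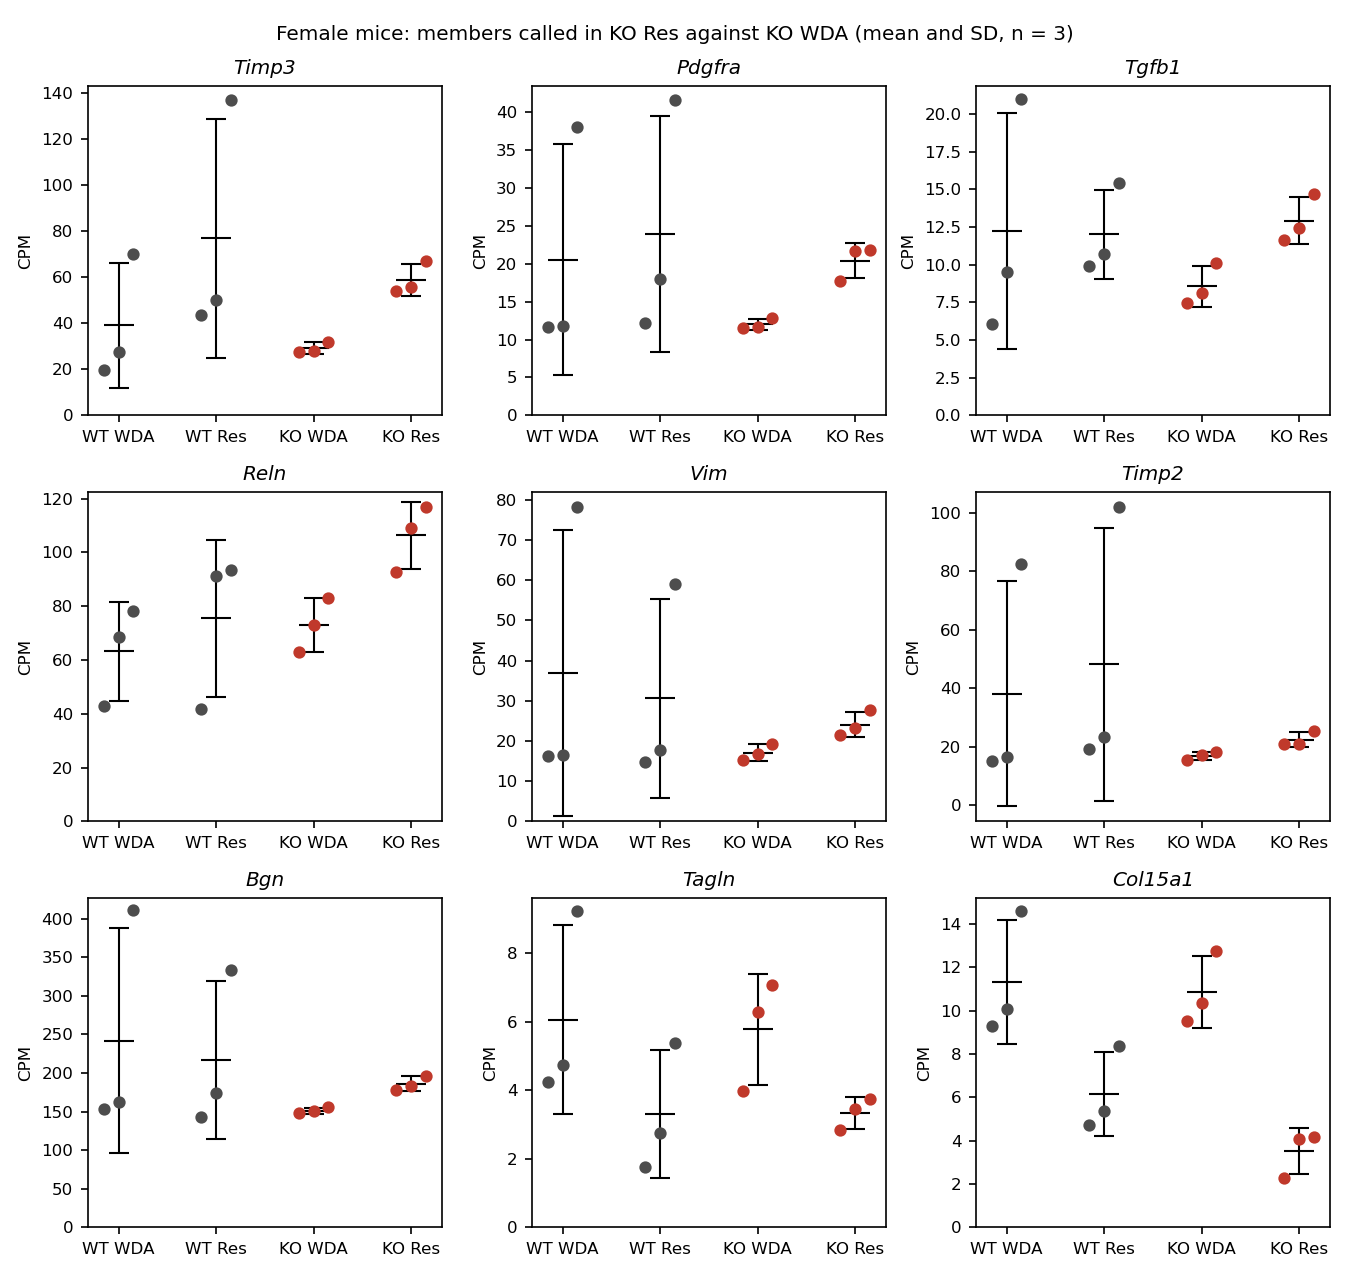
CPM of the 9 genes called between KO Res and KO WDA females, by mouse (points) with mean ± SD (n = 3), beside the WT females of both stages. Res and WDA values of KO females do not overlap for any of the 9 genes, while WT WDA female 7 and WT Res female 13 stretch the WT ranges.

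Related genes outside the set were called in both directions in KO females, where 10.2% of all genes rose and 10.2% fell. Of 22 tested TGF-β and PDGF signalling genes, 5 rose and none fell, among them the co-receptor *Tgfbr3* (log2 fold change 0.84, edgeR adjusted p = 0.00282) and *Skil*, a repressor of SMAD signals (0.71, adjusted p = 0.0125). Of 15 tested proteases and inhibitors, 4 rose, among them the neutrophil collagenase *Mmp8* (3.30, adjusted p = 0.00355) and *Mrc2* (0.89, adjusted p = 0.0451), a receptor that takes up cut collagen. Collagen maturation genes were split, with 1 of 18 higher (*P4ha2*, 1.02) and 2 lower (*P4hb*, −0.72, and *Plod1*, −0.45). Of 27 other matrix genes 2 rose (*Matn2*, 1.36, and *Ecm1*, 0.43) and *Fbln2* fell by 0.83.

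Cell type markers were also called there, beside the same 10.2% of all genes in each direction. Among 19 stellate markers, those that rose included *Reln* and *Hand2* (by 0.75), and *Nes*, the filament nestin, fell by 1.16. Of 7 tested portal fibroblast markers 3 fell, namely *Gas6* (log2 fold change −1.13), *Entpd2* (−1.02) and *Fbln2*. Of 9 scar-associated macrophage markers 2 rose (*Itgax*, 2.04, and *Trem2*, 1.85) and 2 fell (*Lpl*, −0.93, and *Cd63*, −0.83). Of 7 Kupffer cell markers 3 rose and of 10 hepatocyte markers 3 rose, while 1 of 6 cholangiocyte markers, *Krt23*, fell by 3.08. The part of these markers in the changes of the set was not tested.

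In WT females 0 of 37 genes of the set passed between Res and WDA, beside 0% of 12603 genes. DESeq2 called 387 genes, 0 of them in the set. At unadjusted p under 0.05 there were 2 (13.6% of all genes), both lower after resolution, and 2 did not overlap (20.3%). *Postn* (periostin, a matrix protein of injured tissue) was 12.2, 12.6 and 6.33 CPM in Res and 17.9, 20.7 and 18.9 CPM in WDA mice (log2 fold change −0.91, SE 0.261, edgeR adjusted p = 0.248). *Col15a1* was 4.74, 5.35 and 8.36 CPM against 9.30, 10.1 and 14.6 CPM (−0.89, SE 0.298, adjusted p = 0.287). The median of the set was −0.30, but it became 0.81 without WT WDA female 7 and −1.08 without WT Res female 13, and −0.03 without both, when 7 genes reached unadjusted p under 0.05 (22.3% of all genes).

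In WT males, the set leaned upward after resolution without a call. None of 38 passed beside 11% of 12408 genes; 6 reached unadjusted p under 0.05, all higher (30.6% of all genes in either direction, 15.3% higher), and 3 did not overlap (35.8%). The median was 0.56, with 31 genes above 0, and fell to 0.03 without WT Res male 9 and rose to 1.02 without WT WDA male 19. *Mmp14*, which activates gelatinase A at the cell surface, was 61.1, 58.9 and 69.7 CPM against 51.2, 44.3 and 49.0 CPM (log2 fold change 0.41, SE 0.111, edgeR adjusted p = 0.0523). *Acta2* was 2.15, 2.14 and 9.60 CPM against 1.98, 0.488 and 0.999 CPM (2.03, SE 0.719, adjusted p = 0.103), and *Timp3* 39.8, 35.2 and 82.7 CPM against 34.8, 25.3 and 32.0 CPM (0.80, SE 0.320, adjusted p = 0.137). DESeq2 called these 3 and *Thbs1* (adjusted p between 0.0151 and 0.0457).

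Of 18 collagen maturation genes tested in WT males, 3 fell and 1 rose after resolution (11% of all genes were called), and the median of the list was 0.09: *Plod1* (lysyl hydroxylase, log2 fold change −0.88, edgeR adjusted p = 0.00388), *P4hb* (a subunit of prolyl 4-hydroxylase, −0.84) and *Ppib* (−0.65) against *Bmp1* (procollagen C-proteinase, 0.38). *P4hb* and *Plod1* fell in KO females too, and these comparisons share no mice. Of 23 TGF-β and PDGF genes *Smad4* rose by 0.42 and *Ccn1* fell by 1.23, and of 27 other matrix genes *Nid2* rose by 0.97 and *Col12a1* fell by 0.90. Few markers of other cell types were called there, beside the same 11% of all genes. Of 7 tested cholangiocyte markers *Sox9* rose by 1.95, and of 9 scar-associated macrophage markers *Itgax* rose by 1.96. Of 9 endothelial markers *Lyve1* rose by 0.997 and *Oit3* fell by 0.60, and of 10 hepatocyte markers *Ahsg* fell by 0.52.

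In KO males, 0 of 40 passed beside 0% of 12747 genes, with 0 by DESeq2; 1 reached unadjusted p under 0.05 (6.43%) and 1 did not overlap (13.1%). That gene was *Postn*, at 7.28, 5.84 and 10.8 CPM in Res against 11.1, 14.8 and 11.9 CPM in WDA males (log2 fold change −0.67, SE 0.255, edgeR adjusted p = 0.719). The median was −0.55, with 36 of 40 below 0, and changed sign to 0.27 without KO WDA male 17. It was −0.88 without KO Res male 5 (0 called, 0 at unadjusted p under 0.05, 4.97% of all genes), and −0.15 without both (0 called, 1 at unadjusted p under 0.05, 9.08% of all genes).

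With sexes combined and sex as a covariate, no gene of the set passed in WT mice (0 of 40, 10.3% of 13152 genes; 3 at unadjusted p under 0.05, 27.4%) or in KO mice (0 of 40, 9.14% of 13036 genes; 4 unadjusted, 26.4%). The lowest adjusted p-values were 0.0898 in WT mice, for *Col15a1* (log2 fold change −0.56), and 0.0542 in KO mice, for *Reln* (0.47). DESeq2 called 0 in WT mice and 2 in KO mice, *Col15a1* lower and *Reln* higher. Without KO Res male 5, edgeR called 1 of 40 in KO mice, which was higher (5.04% of all genes; 5 at unadjusted p under 0.05, 23%). The difference between the sexes in the effect of stage was tested as an interaction. In WT mice 0 passed (0.0076% of all genes; 1 at unadjusted p under 0.05, 7.71%) and in KO mice 0 passed (0%; 2 unadjusted, 7.9%), the latter *Tgfb1* (0.96, adjusted p = 0.442) and *Col15a1* (−1.31, adjusted p = 0.501), as females minus males. Without KO Res male 5, 0 passed in KO mice (0.0912%; 4 unadjusted, 9.79%).

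KO and WT mice were then compared within stage and sex. In WDA females 0 of 38 passed beside 0% of 12397 genes, with 0 by DESeq2; 4 reached unadjusted p under 0.05 (3.11%), all lower in KO mice (1.7% lower), and 4 did not overlap (8.92%). The 4 that did not overlap were *Col6a1*, *Col6a2*, *Loxl2* and *Mmp14*, with log2 fold changes of −1.26, −1.79, −1.14 and −0.35 (each edgeR adjusted p = 0.978). *Col6a2*, a chain of the microfibrillar collagen VI, was 3.21, 3.03 and 3.32 CPM in KO and 3.70, 4.45 and 23.6 CPM in WT mice, so the groups did not overlap but 1 mouse made most of the difference. The median of the set was −1.07 and was 0.00040 without WT WDA female 7.

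In WDA males the direction was opposite. None of 39 passed beside 0% of 12419 genes, with 0 by DESeq2, but 38 of 39 were above 0 and the median was 1.27. At unadjusted p under 0.05 there were 10 (7.71%), all higher in KO males (5.56% higher), and 6 did not overlap (16.7%). *Col4a2* was 24.04, 64.8 and 26.1 CPM in KO and 21.6, 20.9 and 18.5 CPM in WT males (log2 fold change 0.95, SE 0.388, edgeR adjusted p = 0.588). *Tagln* (0.91), *Des* (desmin, the filament of rodent stellate cells, 0.87) and *Col14a1* (0.76) also did not overlap, with the same adjusted p of 0.588. The median was 0.44 without KO WDA male 17 and 1.74 without WT WDA male 19.

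The opposite directions were tested directly as an interaction of sex and KO on WDA. None of the set passed (0% of 12895 genes, lowest edgeR adjusted p 0.430, 0 by DESeq2), while 28 reached unadjusted p under 0.05 (11.4% of all genes), all with a lower KO effect in females (8.35% lower). *Col14a1* had the smallest unadjusted p-value, at −0.97 on the log2 scale (SE 0.266, adjusted p = 0.430), and *Col1a1* had −5.36 (SE 1.82). Without WT WDA female 7 and KO WDA male 17 the number at unadjusted p under 0.05 was 2 (7.24%), and the median of the set moved from −2.20 to −0.35.

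In Res females 0 of 37 passed beside 0% of 12577 genes, with 0 by DESeq2; 5 reached unadjusted p under 0.05 (19.2%) and 3 did not overlap (25.7%). *Thbs2* (thrombospondin 2, a matricellular protein of fibroblasts) was 3.18, 3.85 and 3.90 CPM in KO and 4.34, 4.64 and 25.1 CPM in WT mice (log2 fold change −1.67, SE 0.664, edgeR adjusted p = 0.231). *Col15a1* was 4.16, 4.08 and 2.29 CPM against 4.74, 5.35 and 8.36 CPM (−0.83, adjusted p = 0.221), and *Postn* was higher at 20.3, 13.6 and 17.1 CPM against 12.2, 12.6 and 6.33 CPM (0.71, adjusted p = 0.210). The median was −0.66 and became 0.19 without WT Res female 13.

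In Res males 0 of 40 passed beside 0% of 12620 genes, with 0 by DESeq2; 1 reached unadjusted p under 0.05 (1.45%), *Reln* (log2 fold change 0.60, edgeR adjusted p = 0.9998), and 0 did not overlap (4.67%). The median was 0.12. It was −0.24 without KO Res male 5 (0 called, 1 at unadjusted p under 0.05, 1.95% of all genes), 0.61 without WT Res male 9 and 0.28 without both. With sexes combined, 0 of 39 passed on WDA (0% of 12895 genes; 1 at unadjusted p under 0.05, 2.92%) and 0 of 40 after resolution (0% of 13178 genes; 1 unadjusted, 7.85%). The interaction of sex and KO after resolution gave 0 (0%) and 1 at unadjusted p under 0.05 (11.5%), *Col15a1* (−1.03, adjusted p = 0.365). Without KO Res male 5, 0 passed in the combined fit after resolution (5 unadjusted, 10.2%) and 0 in the interaction (0 unadjusted, 10.7%).

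HepKO females were compared with both other vectors on WDA, so these comparisons share mice with each other and with KO against WT. The control vector is not known to carry the TBG promoter, so a difference of HepKO from WT cannot be told apart from one of promoter. Against WT, 0 of 37 passed beside 0% of 12413 genes, with 0 by DESeq2, 0 reached unadjusted p under 0.05 (10.1%) and 2 did not overlap (18.6%). *Thbs1* (thrombospondin 1, which activates latent TGF-β) was 1.41, 1.46 and 1.63 CPM in HepKO and 1.79, 1.72 and 11.2 CPM in WT mice (log2 fold change −1.74, edgeR adjusted p = 0.510). *Thbs2* was 3.95, 3.49 and 3.32 CPM against 4.05, 4.00 and 14.7 CPM (−1.12, adjusted p = 0.544). The median was −0.72 and became 0.24 without WT WDA female 7.

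HepKO and KO females both held no library that stood apart. None of 38 passed beside 0.0162% of 12351 genes, with 0 by DESeq2; 9 reached unadjusted p under 0.05 (5.74%), 8 of them higher in HepKO mice (3.06% higher), and 11 did not overlap (10.6%). *Col1a1* was 7.96, 6.14 and 4.79 CPM in HepKO and 3.68, 2.26 and 3.67 CPM in KO mice (log2 fold change 0.97, SE 0.257, edgeR adjusted p = 0.611). *Acta2* went the other way, at 1.69, 0.957 and 1.52 CPM against 5.55, 1.71 and 3.96 CPM (−1.42, SE 0.415, adjusted p = 0.649). *Loxl2*, a cross-linking enzyme, had 0.60 and *Fbn1*, the microfibril protein fibrillin 1, 0.50 (adjusted p = 0.680 and 0.859). The median of the set was 0.15 (−0.01 over all genes), and between 0.11 and 0.29 with each mouse left out. In the same comparison, 4 of 7 Kupffer cell markers (median 0.47) were higher in HepKO mice at unadjusted p under 0.05. Of 9 scar-associated macrophage markers (median 0.23), 3 were higher and 1 was lower at that threshold. The part of these markers in the result was not tested.

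**Figure D5:**
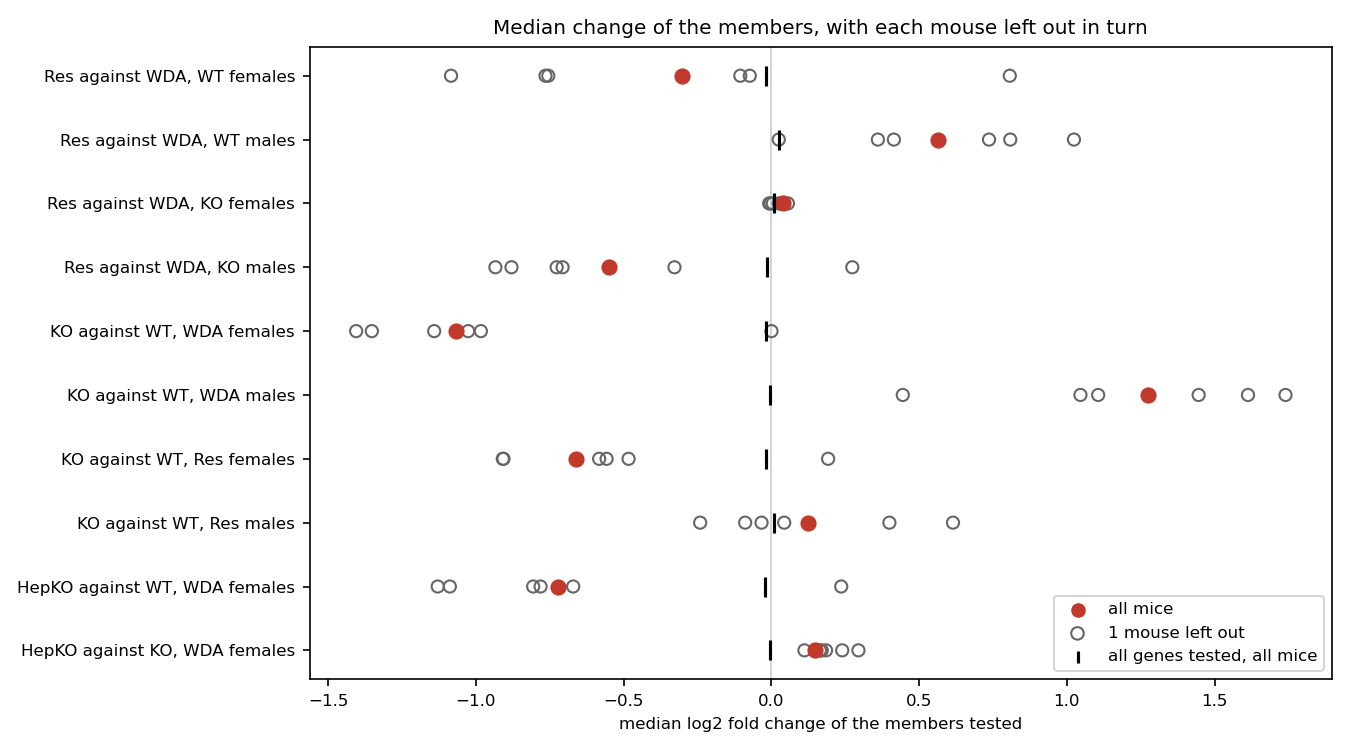
Median log2 fold change of the tested genes of the set in each of the 10 comparisons (main value), with each mouse left out in turn (small points), and the median of all genes tested. The set's median crosses or reaches 0 without WT WDA female 7 in the 3 comparisons that hold it, without KO WDA male 17 in Res against WDA KO males and without WT Res female 13 in KO against WT Res females, while medians near 0 (KO females by stage, KO against WT Res males) cross it on leaving out several mice; the all-gene median lies between −0.02 and 0.02.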

How the data were processed

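RNA from whole liver of 27 mice was sequenced, 3 mice in each of 9 groups taken from the labels. The study's methods state alignment with HISAT and Bowtie2 to GRCm38.p6; versions and the counting tool are not given in the sources used here. The authors deposited an estimated count per gene and library, without normalization, and an FPKM value, scaled by transcript length and library total. Between 6.33% and 8.43% of the counts in a table were not whole, and counts were rounded. Genes that a table did not list were set to 0 in its libraries.

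Counts were tested in R 4.3.3 with edgeR 4.0.16 (filterByExpr with minimum count 10, TMM scaling, glmQLFTest, Benjamini-Hochberg adjustment at 0.05), each comparison on its own groups. limma 3.58.1 was loaded with edgeR, and DESeq2 1.42.0 was an alternative. The members and lists were chosen with earlier results of these data known. Named genes were those called (at most 4 each way), otherwise up to 4 with no overlap and the largest change, and 8 fixed genes. Other genes at unadjusted p under 0.05 were named after their values were seen. Some genes of the other lists are not reported here. Scripts were tested on simulated counts. Chi-square per degree of freedom between libraries of a group was at least 14.5, so no pair agreed within sampling noise. An exact permutation test of 3 against 3 mice cannot go below p = 0.1 and was not used.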

Additional observations from a re-analysis of the deposited data

How the results depend on the processing

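Alternatives were RLE scaling, DESeq2, no filter, at least 10 counts in every library, a spread shared by all groups, each mouse left out and, chosen after seeing the data, library totals and leaving out 2 high libraries together; no named result changed direction past a threshold. The number of genes of the set called for Res against WDA was 1 with RLE scaling, 1 with at least 10 counts and 4 with DESeq2 in WT males (0 in the main fit). In KO females it was 1 with a shared spread and 3 to 6 with each mouse left out (9 in the main fit). With sexes combined, it was 1 with a shared spread and 0 to 1 with each mouse left out in WT mice, and 2 with DESeq2, 1 with at least 10 counts, 1 with a shared spread and 0 to 2 with each mouse left out in KO mice. In FPKM, 0, 4 and 8 genes were highest in HepKO WDA female 14, WT Res female 13 and WT WDA female 7, against 1, 7 and 5 in CPM. With each mouse left out, the set's median ran from −1.08 to 0.81 for Res against WDA in WT females, from −1.41 to 0.00040 for KO against WT in WDA females, from −0.91 to 0.19 in Res females, from −1.13 to 0.24 for HepKO against WT and from 0.11 to 0.29 for HepKO against KO. The cause of these moves was not tested. Library totals shifted the median of all genes by up to 0.21 (KO against WT, WDA males), and the set's median was then 1.59.

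Mouse numbers do not pair mice: the correlations of same-numbered KO females were −0.03 and 0.09. A fit with the mouse number as a replicate block called 6 genes in KO females, with a set median of 0.08; *Reln* (adjusted p = 0.0644) and *Tagln* (0.104) were not called. Depth limits *Mmp13* and *Timp1*, which had few counts.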
